A study of Mus musculus with 12 samples.

Results

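Mouse embryonic fibroblasts (MEFs) lacking type 2 transglutaminase (TG2 KO, TG2-/-) were compared with wild-type (WT) MEFs after both had been heat-shocked. The comparison set 3 libraries of heat-shocked KO MEFs against 3 of heat-shocked WT MEFs and covered every gene with a normalized value of at least 10 in at least 3 of these 6 columns. That rule kept 13701 of the 45808 genes in the table (29.9%), while 22783 genes (49.7%) had no read in the 6 libraries and 9324 had reads but fell below the minimum. Messenger RNA had been sequenced from 4 groups of 3 libraries, WT and KO MEFs each at 37 °C and after 20 min in a water bath at 42 °C. Both genotypes came from C57BL/6 embryos at E14, and cells of both had been passaged until they became immortal on their own. A genotype difference is therefore also a difference between cells immortalized separately, and the 2 cannot be told apart here. The number of such cell populations for each genotype is not given in the sources used here. No source used here states that replicate libraries stem from independent cultures, so p-values measure the spread between these libraries, which may be technical.

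TG2, encoded by Tgm2, crosslinks proteins through glutamine residues and binds GTP, and it is found in the cytosol, in the nucleus and on the cell surface, where it meets fibronectin and integrins. Heat unfolds proteins, releases heat shock factor 1 (HSF1) from its chaperones and lets it bind heat shock elements in the promoters of chaperone genes. Fibroblasts also build the extracellular matrix and keep a memory of the body region they came from in their Hox genes.

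The 6 heat shock libraries held 15319300 to 20565551 reads in genes, and 1 read was worth 0.988 to 1.38 units of the normalized value, called signal here. Libraries of 1 group correlated at 0.993 to 0.995 across genes (Pearson r, log2 of signal plus 1), and the first principal component, which parted the genotypes, carried 96.3% of the variance. The targeted gene was lower and not absent: Tgm2 signal was 2049, 1957 and 1989 in the WT libraries 1 to 3 and 1049, 526 and 1092 in the KO libraries 1 to 3. The second KO library was the lowest, and the log2 difference of -1.24 ± 0.19 (SE; limma adjusted p = 3.15e-05) was -0.90 without it. A table with 1 value a gene does not show which exons the remaining reads lie in.

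Differences are given from here on as KO minus WT on the log2(signal + 1) scale with their standard error, and a gene was called where limma's Benjamini-Hochberg adjusted p was at most 0.05 and the fold at least 1.5. By this rule 3133 genes were higher in heat-shocked KO MEFs (22.9% of those tested) and 3455 were lower (25.2%), together 6588 or 48.1%. The median difference over all tested genes was -0.04. Of the called genes, 1948 were higher and 2246 lower by at least 2-fold, 823 and 1324 by at least 4-fold, and 268 and 786 by at least 16-fold. The KO and WT libraries did not overlap for 6518 of the 6588 called genes, and for 79.1% of all genes tested. Quantile normalization, which moves the median gene by 0.11 upward, turned the split to 3788 higher and 3023 lower.

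Part of the count follows from the filter itself. The 918 genes that reached 10 in the 3 WT columns and in no KO column held 917 of the lower calls, and the 566 that did so in the KO columns only held 560 of the higher calls. Among the 11460 genes at 10 or more in all 6 columns, 2338 were higher and 2349 lower (40.9% called). A mean of at least 100 in WT with no read at all in the 3 KO libraries was found for 171 genes, and the reverse for 17. Of genes at the edge of the rule, the 1592 with exactly 3 columns at 10 or more had a median signal of 19.1 and the 449 left out with exactly 2 had 7.85.

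The genes with the largest increases were silent or nearly so in WT MEFs. Pttg1, which encodes securin, the guard of sister chromatid separation, had no read in the WT libraries and a signal of 2965, 3112 and 3141 in the KO libraries, at least 2722-fold higher against a floor of 3 reads over the 3 libraries. Plac8, a small cysteine-rich protein, gave 2136, 2273 and 2304 and the imprinted zinc finger gene Peg3 gave 1798, 2227 and 2039.5, again from no WT read, at least 1983-fold and 1791-fold higher. Slit2 and Slit3, secreted guidance ligands of Robo receptors, rose from 10.9, 14.1 and 13.8 to 2698, 2787 and 2736 and from 33.6, 48.9 and 33.1 to 6557, 7904 and 7326. The other 3 with the highest folds were Ifi202b, an interferon-inducible DNA-binding protein (at least 681-fold), the endosomal RNA receptor Tlr7 (479-fold (95% counting interval 163 to 2323)) and the prostacyclin receptor Ptgir (7.81 ± 0.31).

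In the other direction whole genes fell silent. Sulf2, an enzyme that removes sulfate groups from heparan sulfate outside the cell, had a signal of 8070.1, 8084 and 8955 in WT and only 3 reads in all 3 KO libraries together, 7774-fold (95% counting interval 2659.9 to 37701) lower. No KO read was seen for Peg10, an imprinted retrotransposon-derived gene (3537, 2808 and 2468 in WT, at least 2746-fold lower), for Uchl1, a neuronal-type deubiquitinase (2714, 2897 and 3092, at least 2712-fold), or for Pdk4, the kinase that holds back pyruvate dehydrogenase (2576, 2375 and 2374, at least 2282-fold). Klhl22, Sprr1a, Smoc2 and Trdc completed the 8 and had no KO read either, with WT means of 2635, 2164, 2158 and 2102. All 8 were as low in KO MEFs at 37 °C, where the highest mean among them was 2.45 for Sulf2.

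Among the most abundant called transcripts the folds were smaller. Fn1 (fibronectin), Gapdh, Spp1 (osteopontin), Fth1 (ferritin heavy chain), Vim (vimentin) and Rps2 were higher, by 1.29, 1.32, 4.73, 1.72, 0.82 and 0.67. Col1a1, Actb, Rplp0, Fbln2, Hspa8 and Serpinh1, the collagen chaperone, were lower, by -2.97, -1.63, -1.46, -3.03, -1.32 and -1.19. Spp1 changed most of these, from 3680.4, 3716 and 3458 in WT to 93351, 101078 and 94608 in KO libraries. Gapdh, Actb, Rps2 and Rplp0 have many near-identical pseudogenes, and how the counting shared reads among copies is not given in the sources used here.

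Heat shock genes were the reason to compare these groups, since TG2 had been reported to act on HSF1. Of 36 chaperones and co-chaperones under HSF1 control, there were 3 higher and 14 lower among 35 tested, 48.6% called, with a median of -0.54 against -0.04 for all genes. The share called was near the 48.1% of all genes (22.9% higher and 25.2% lower), which is also the background for the share of every other list. The inducible Hsp70 genes differed most. Hspa1b signal was 4376, 5677 and 2061 in the WT libraries and 70.1, 66.4 and 103 in the KO libraries, a difference of -5.55 ± 0.41 (limma adjusted p = 1.03e-08). Its twin Hspa1a gave 210.4, 331 and 90.9 and 5.65, 3.11 and 11.5, a difference of -4.73 ± 0.50 (limma adjusted p = 5.39e-07). No library of one genotype came near the other, while the third WT library was the lowest of its group for both genes, and without it the differences were -5.98 for Hspa1b and -5.24 for Hspa1a. These twins share 52.7% (Hspa1a) and 55.8% (Hspa1b) of the 75-base windows of their transcripts, so the split of reads between them is uncertain, and both were lower.

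Of the list, 27 members had a RefSeq promoter window (GRCm38.p6, from 250 bases before to 50 after the start site). In the 250 bases before the start site, 13 of the 27 held a heat shock element. It was searched as GAANNTTC or TTCNNGAA, each of which is its own reverse complement. Over the whole window, 46.2% of 39 windows of the list held a match, against 11.5% of the 12404 windows of all tested genes. The same held for 313 of 2717 windows of genes higher in KO and 353 of 3215 windows of genes lower. Shown are the last 130 bases before the start site for both Hsp70 twins, for 3 further genes that were lower in KO and for Hspe1, the mitochondrial co-chaperonin, which was not called. Each stretch shown was picked with a match, and Dnaja4 had another window without any. Bag3 and Hspb8, also lower in KO, and Dnajb1, not called, had no match in the 250 bases before the start site. Capitals mark the matches, and each line reads 5′ to 3′ on the gene's strand.
Hspa1a: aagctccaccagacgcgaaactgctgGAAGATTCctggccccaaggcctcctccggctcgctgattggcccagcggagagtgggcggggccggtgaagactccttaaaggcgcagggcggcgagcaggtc
Hspa1b: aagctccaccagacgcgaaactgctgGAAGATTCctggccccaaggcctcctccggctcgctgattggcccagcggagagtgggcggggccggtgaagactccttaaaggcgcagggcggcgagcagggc
Hspb1: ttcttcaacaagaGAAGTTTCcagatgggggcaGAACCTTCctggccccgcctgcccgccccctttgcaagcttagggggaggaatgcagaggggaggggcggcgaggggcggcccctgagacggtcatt
Hsph1: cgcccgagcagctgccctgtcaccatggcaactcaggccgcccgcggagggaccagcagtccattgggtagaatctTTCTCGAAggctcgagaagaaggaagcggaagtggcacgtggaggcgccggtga
Dnaja4: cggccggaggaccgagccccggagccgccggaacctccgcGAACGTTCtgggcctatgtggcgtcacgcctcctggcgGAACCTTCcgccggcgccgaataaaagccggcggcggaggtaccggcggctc
Hspe1: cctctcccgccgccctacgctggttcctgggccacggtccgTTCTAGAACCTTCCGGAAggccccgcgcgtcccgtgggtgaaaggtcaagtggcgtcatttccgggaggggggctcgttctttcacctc
The stretches lie at chr17:34972157-34972286 (minus strand) for Hspa1a, chr17:34959239-34959368 (minus strand) for Hspa1b, chr5:135887789-135887918 (plus strand) for Hspb1, chr5:149636316-149636445 (minus strand) for Hsph1, chr9:54699429-54699558 (plus strand) for Dnaja4 and chr1:55088018-55088147 (plus strand) for Hspe1. Both twins carried the same match at the same place, 104 bases before the start. Hspe1, whose 3 matches overlap, had a signal of 4049.9, 4148 and 4147 in WT and 4171, 3902 and 4028 in KO libraries, so a matching promoter went with a large difference in some genes and with overlapping libraries in another.

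Of the small heat shock proteins, which hold unfolding proteins in solution, Hspb1, Hspb8 and Cryab were lower. Hspb1 gave 5852, 6346 and 3796 in WT and 1130.3, 1133 and 1529.9 in KO (-2.06 ± 0.16), Hspb8 gave 4865, 4958 and 4823 and 922, 919 and 934 (-2.40 ± 0.06), and Cryab gave 1172, 1256 and 1288 and 219, 245 and 195 (-2.50 ± 0.10). Hspb6 was not called (-0.07 ± 0.08), and Hspb2, at no more than 36.6 in any library, was higher (1.23 ± 0.37). Of the co-chaperones, Hsph1 (Hsp110) fell from 13140.3, 12906 and 11194 to 4186, 4012 and 4116 and Bag3, which couples Hsp70 to Hspb8, from 3297, 3461 and 3119 to 904, 1064 and 1085. Dnaja4 had 81, 99 and 71.6 in WT and no read in KO MEFs at either temperature. Constitutive Hspa8 was lower by -1.32 and the stress-inducible Hsp90 gene Hsp90aa1 by -0.90.

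Not every chaperone followed after heat shock. Dnajb1, the main inducible Hsp40, was called higher in KO MEFs without heat shock, as given below. After heat shock it was called in neither direction (2831, 2778 and 1919 in WT, 2666, 2549.7 and 2848 in KO, 0.12 ± 0.11, limma adjusted p = 0.334), nor was Hsp90ab1 (-0.08 ± 0.07). The immunophilin Fkbp4 was higher (11124, 11782 and 12398 against 23709, 24400.3 and 24798, 1.05 ± 0.07), and so was the mitochondrial Hsp70 gene Hspa9 (0.70 ± 0.06). Hsf1 itself was lower, 3569.8, 3877 and 4035 in WT and 2173, 2284 and 2159 in KO (-0.79 ± 0.07, limma adjusted p = 1.54e-07), as was Hsf4 (127, 137 and 136 against 1.13, 2.07 and 2.09). Hsf2 was lower by -0.62, a call lost without the third KO library (-0.56). Hspb2, Hspb6, Hspb8, Dnaja4, Hspe1, Fkbp4, Hspa9 and Hsp90ab1 were chosen after their values were seen.

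**Figure D1:**
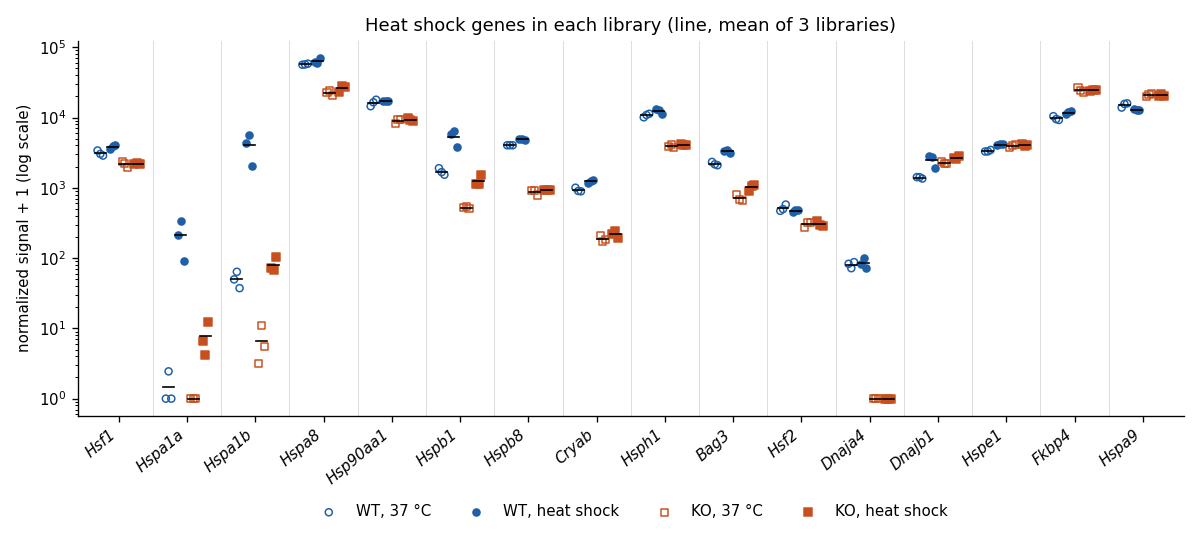
Signal plus 1 on a log axis for 16 heat shock genes in each of the 12 libraries, WT in blue circles and KO in orange squares, open at 37 °C and filled after heat shock, with a line at the mean of 3 libraries. After heat shock Hspa1b lay between 2061 and 5677 in WT and between 66.4 and 103 in KO libraries, whereas Hspa8, Hspb8, Cryab and Hsph1 were apart by about the same distance at both temperatures.

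How much of the heat shock gene difference was already there at 37 °C varied from gene to gene. At 37 °C the means were 4029 in WT and 869 in KO for Hspb8, 10745 and 3901 for Hsph1, and 57199 and 22595 for Hspa8, so that the difference after heat shock minus the difference at 37 °C was -0.18, -0.13 and 0.02. For Hspa1b the 37 °C means were 49.3 and 5.54, and the difference between the differences was -2.46 (limma adjusted p = 0.108, edgeR 0.257, DESeq2 0.0206). For Hspa1a, nearly without reads at 37 °C in both genotypes, it was -4.30 on the log2(signal + 1) scale (limma adjusted p = 0.0698, edgeR 0.97). Neither passed limma's threshold as fitted, and the call of both turned on the setting. With a pseudocount of 5 limma called both (adjusted p = 0.0235 for Hspa1b and 0.00642 for Hspa1a), as it did without the first WT library at 37 °C (0.0499 and 0.0311). Hspa1a was also called with a minimum of 50 (0.041), with quantile normalization (0.0239) and without the first or the third heat-shocked WT library (0.0327 and 0.0216). Over 19 alternatives the adjusted p ran from 0.0206 to 0.267 for Hspa1b, and over 18 from 0.00642 to 0.97 for Hspa1a. Dnajb1 was called higher in KO MEFs at 37 °C (means of 1395 in WT and 2249 in KO, 0.69, limma adjusted p = 4.64e-05). After heat shock its means were 2510 and 2688. Its difference between the differences was -0.57 (limma adjusted p = 0.132, edgeR 0.0635, DESeq2 0.00887), negative as for Hspa1b and Hspa1a. Limma called it only without the third heat-shocked WT library (-0.75, adjusted p = 0.00225).

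Immediate early genes, which answer growth factors and stress within minutes, were split, with 16 higher and 13 lower among 42 tested, 69% called and a median of 0.38. Atf3, a stress-induced repressor, was lower (419.8, 459 and 146 in WT, 40.7, 39.4 and 26.2 in KO, -3.09 ± 0.33), as were Junb by -1.22, Gadd45g by -4.24 and Arc by -7.21. Fos was higher (154, 151 and 95.1 against 293, 223 and 321, 1.08 ± 0.26), together with the phosphatases of MAP kinases Dusp4 (3.27) and Dusp6 (2.77) and the orphan receptors Nr4a1 (3.08) and Nr4a2 (3.15). Jun, with 2269, 2438 and 1380.5 in WT and 2965, 2777 and 3024 in KO libraries, was past limma's p threshold (0.00453) but short of the fold. It was called when the first WT, second WT or second KO library was left out (0.67, 0.72 and 0.60), whereas Egr1 (0.64 ± 0.15) lost its call without the second WT library (0.53). The third WT library was the lowest of its group for Atf3, Fos, Jun and Dusp1, as it was for Hspa1a and Hspa1b. Without it the differences were -3.62 for Atf3, 0.85 for Fos, 0.31 for Jun (0.57 with it) and 0.73 for Dusp1 (1.1 with it), and its part in the results was not tested beyond that. Junb, Dusp6 and Nr4a1 were chosen after their values were seen.

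For the same comparison in cells kept at 37 °C, the differences came from none of these 6 libraries. Its calls did share limma's spread per gene over all 12 libraries, and the genes were picked on the heat shock columns. The comparison at 37 °C gave a very similar picture over the same 13701 genes. There 3080 genes were higher in KO (22.5%) and 3508 lower (25.6%), together 6588 or 48.1%. That the total equals the one after heat shock is a coincidence of counts, and 5739 genes were called in 1 direction in both comparisons, 87.1% of each. With each comparison fitted on its own libraries alone, the shared count was also 5739. The differences of the 2 comparisons correlated at 0.985 across genes, which are not independent replicates. Of the 847 genes called only after heat shock, 817 had the same sign at 37 °C and 586 passed the adjusted p there, so most missed on the fold. Only 2 genes were called in opposite directions, a predicted gene and Hmha1, which encodes a minor histocompatibility antigen, named after its values were seen.

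Whether the genotype difference itself changed with heat was tested as the difference between the differences. No gene was called by limma, 0% of 13701, although 2517 genes had an unadjusted p below 0.05 and the smallest adjusted p was 0.0698. On recovered whole reads edgeR called 10 genes and DESeq2 34, of which 6 were shared. The edgeR calls not shared were Arhgap29, Dnm3os, Dusp1 and Rpph1, for which DESeq2 gave no adjusted p. Their fitted values were alike in both tools, such as -1.43 by edgeR and -1.40 by DESeq2 for Dusp1. Among the 38 genes called by either tool, the fitted limma difference was positive for 29 and negative for 9. The negative ones included Jun (-1.13), Ier2 (-0.79), Junb (-0.81), Dusp1 (-1.30), Dnajb1 (-0.57) and Hspa1b. For Jun the means were 872 in WT and 2844 in KO MEFs at 37 °C, and 2029 and 2922 after heat shock, so the genotypes stood closer after heat. Leaving out the first WT library at 37 °C raised limma's count to 123 positive and 32 negative calls, and leaving out the first heat-shocked WT library to 55 and 17, so the count of 0 depended on single libraries.

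**Figure D2:**
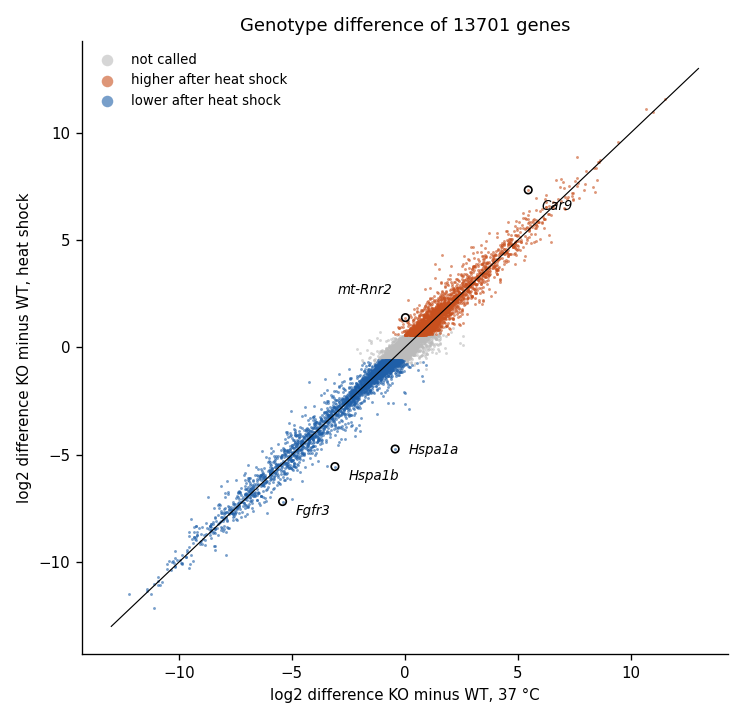
Log2 difference KO minus WT of each of the 13701 tested genes at 37 °C (horizontal) and after heat shock (vertical), with the line of equal differences and 5 genes ringed. Genes called higher (3133, orange) and lower (3455, blue) after heat shock lie along the line, with Hspa1a (-4.73 after heat shock) and Hspa1b (-5.55) below it and mt-Rnr2 (1.39) above it.

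Wnt ligands bind Frizzled and Lrp receptors and keep β-catenin from being degraded, so that it can join Tcf/Lef factors on DNA. All 7 ligand genes that passed the filter were lower in heat-shocked KO MEFs, from a list of 19, but 6 of them passed through their WT columns alone and so had to differ, and only Wnt10b reached 10 in both genotypes. Wnt5a, a ligand best known for signalling without β-catenin, had a signal of 728, 668 and 681 in WT and no read in KO, at least 647-fold lower. Wnt10b, which acts through β-catenin, fell from 641, 689 and 605 to 23.7, 12.4 and 16.7 (-5.16 ± 0.28, limma adjusted p = 2.77e-10). Wnt4 gave 691, 634 and 621 and 1.13, 3.11 and 4.19, and Wnt5b gave 233, 229 and 273 against a single KO read, 681-fold (95% counting interval 122 to 26922) lower. Wnt6 and Wnt11, of at most 33.1 in any WT library, had no KO read, and Wnt9a was lower by -1.47. These last 3 were chosen after their values were seen.

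Of the receptors and co-receptors, there were 2 higher and 9 lower among 16 tested, 68.8% called, 3 past the filter in WT columns only, with a median of -1.18. Fzd4 fell from 174, 142 and 129.5 to 4.52, 8.3 and 6.28 and Ror2, a receptor for Wnt5a, from 1072, 1168 and 1132 to 356, 466 and 419.6. Lrp5 was lower (-1.32 ± 0.09) and Lrp6 did not reach the fold (-0.49 ± 0.07, limma adjusted p = 2.43e-05). Fzd1 was the reverse, 714, 606 and 639 in WT and 1169.9, 1261 and 1180.4 in KO (0.88 ± 0.07). The secreted modulators were divided, 3 higher and 3 lower among 7 tested, 85.7% called. The 3 lower ones, Sfrp1, Sfrp2 and Rspo1, passed the filter in WT columns only and so had to differ. Sfrp1 and Sfrp2, decoys that bind Wnt proteins, had WT signals of 530.4, 472 and 471 and 1979, 1914 and 1878 and no KO read, at least 459-fold and 1798-fold lower, and Rspo1, an R-spondin that strengthens Wnt signalling, was lower by -6.40. Igfbp4, an IGF-binding protein that also blocks Frizzled and Lrp6, was higher instead, 127, 96.8 and 124 in WT and 5431, 6020.5 and 5664 in KO libraries (5.62 ± 0.12, limma adjusted p = 6.73e-15), as was Dkk3 (1.05 ± 0.05, chosen after its value was seen).

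In the β-catenin complex and among the Tcf/Lef factors, there were 1 higher and 9 lower among 27 tested, 37% called against 48.1% of all genes, with a median of -0.34. Ctnnb1, the β-catenin gene, was at 16337, 15246 and 15374 in WT and 7424, 7892 and 7693 in KO (-1.03 ± 0.05, limma adjusted p = 1.43e-10). Lef1 fell from 295, 336 and 311 to 10.2, 17.6 and 15.7 (-4.38 ± 0.20), and Tcf7 and Tcf7l2 by -1.60 and -1.68. The destruction complex moved little, with Axin1 at -0.04 ± 0.05, Gsk3b at 0.26 ± 0.09 and Apc at -0.34 ± 0.08, and none of these 3 was called. They were chosen after their values were seen. With no fold threshold the list had 11 higher and 14 lower members, so its lean came from the larger differences.

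Genes that respond to β-catenin went both ways, 5 higher and 5 lower among 15 tested, 66.7% called, with a median of -0.23. The filter was passed by 2 of the 15 in WT columns only. Axin2, the most general target and a brake on the pathway, was low in all libraries and higher in KO (38.5, 33.7 and 30.3 against 54.3, 75.7 and 45, 0.73 ± 0.20), a call lost without the second KO library (0.53). Rnf43, which removes Frizzled from the surface, fell from 310.2, 268 and 288 to 3.39, 3.11 and 3.14. It was 1 of the 2 that passed the filter in WT columns only, so it had to differ. Wisp1 was lower (2416, 2507 and 2306 against 340.2, 337 and 303) and its relative Wisp2 higher (269, 250.1 and 220.4 against 2722, 3120.2 and 2979), while Ccnd1 was not called (0.09 ± 0.06). A Tcf/Lef motif, CTTTGAT or its reverse complement ATCAAAG, was in 2.83% of the promoter windows of genes higher in KO, 2.43% of those lower and 2.49% of all 12404 windows.

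**Figure D3:**
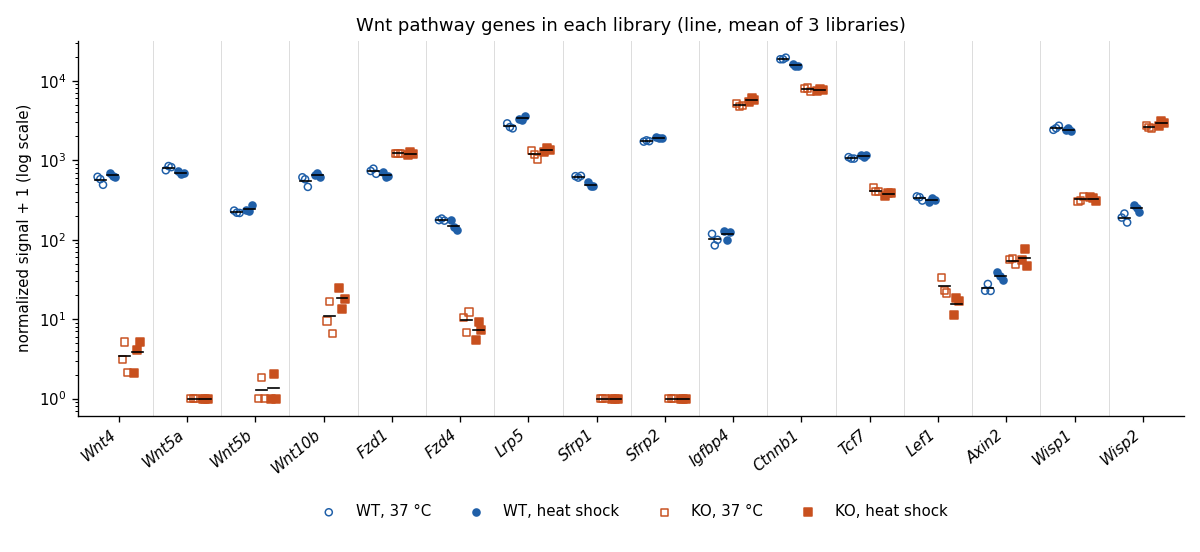
Signal plus 1 on a log axis for 16 genes of the Wnt pathway in each of the 12 libraries, WT in blue circles and KO in orange squares, open at 37 °C and filled after heat shock, with a line at the mean of 3 libraries. Wnt5a, Sfrp1 and Sfrp2 sit at 1 (no read) in every KO library, Igfbp4 lies between 5431 and 6020.5 in heat-shocked KO against at most 127 in heat-shocked WT libraries, and no gene shown changes its order of genotypes between temperatures.

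Many genes of the extracellular matrix, which TG2 crosslinks, were called. Of 33 collagen genes listed, there were 2 higher and 18 lower among 24 tested, 83.3% called, with a median of -1.44. The filter was passed by 2 of them in WT columns only and by 1 in KO columns only. Col1a1, the more abundant chain of type I collagen, fell from 168249, 175518 and 188743 to 21271, 24574 and 22018, while Col1a2, its partner chain in the same trimer, went from 36100.1, 36306 and 38297 to 47726, 51731 and 50138 and stayed under the fold (0.43 ± 0.06). Of the 2 chains of type I collagen only Col1a1 was thus called. Col3a1 was lower by -0.78, Col4a5 of basement membranes by -7.35, and Col11a1 (239, 185 and 214 in WT) had no KO read. Col5a3 was higher, 8.89, 9.79 and 8.27 in WT and 1148, 1246 and 1202 in KO libraries. It passed the filter through its KO columns alone, as Col11a1 did through its WT columns, so both had to differ.

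Elastic fibre genes were among the lower ones: Fbn1 (fibrillin-1) fell from 4217, 3784 and 4165 to 18.1, 25.9 and 18.8, Mfap2, a microfibril protein, from 981, 1041 and 1042 to 23.7, 20.7 and 24.1, and Fbn2 (376, 308 and 344 in WT) and Postn (periostin, 1008, 1022 and 1256 in WT) had no KO read. Fn1, a substrate and partner of TG2, was higher (54302, 51469.8 and 57566 against 125548, 143118 and 130573). Over the matrix glycoproteins as a list there were 9 higher and 13 lower among 30 tested, 73.3% called. The filter was passed by 2 of them in WT columns only and by 2 in KO columns only. Remodelling enzymes gave 6 higher and 11 lower among 29 tested, 58.6% called, 2 past the filter in WT columns only. Lox, the oxidase that crosslinks collagen, was lower by -0.99, and the proteases Adamts1 and Adamts5 were higher by 3.72 and 4.09. Laminins and integrins were evenly split (12 higher and 12 lower among 26 tested, 92.3% called, 6 past the filter in WT columns only), with Itga11, the collagen receptor of fibroblasts, down from 2257, 2233 and 2381 to 4.52, 17.6 and 11.5, Itgb1, a partner of TG2 at the cell surface, higher by 0.68 and Itgb4 higher by 5.55.

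Cadherins were called in both directions. N-cadherin (Cdh2) was at 2287, 2174 and 2312 in WT and 364, 396 and 385 in KO libraries, P-cadherin (Cdh3) at 615, 657 and 638 and 4.52, 7.26 and 2.09, and plakoglobin (Jup), the close relative of β-catenin in junctions, was lower by -1.70. T-cadherin (Cdh13) was higher, 14.8, 12 and 9.64 against 1081, 1256 and 1176. Cdh11, the fibroblast cadherin, was higher by 0.62 and lost its call without the third WT library. In the actin list there were 8 higher and 8 lower among 31 tested, 51.6% called, near the share of all genes. Smooth muscle actin Acta2 was lower by -2.75 and Actb by -1.63, while Tagln was higher by 1.95 and desmin (Des) by 4.04. Acta2 and Tagln, both markers of contractile fibroblasts, thus moved against each other.

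**Figure D4:**
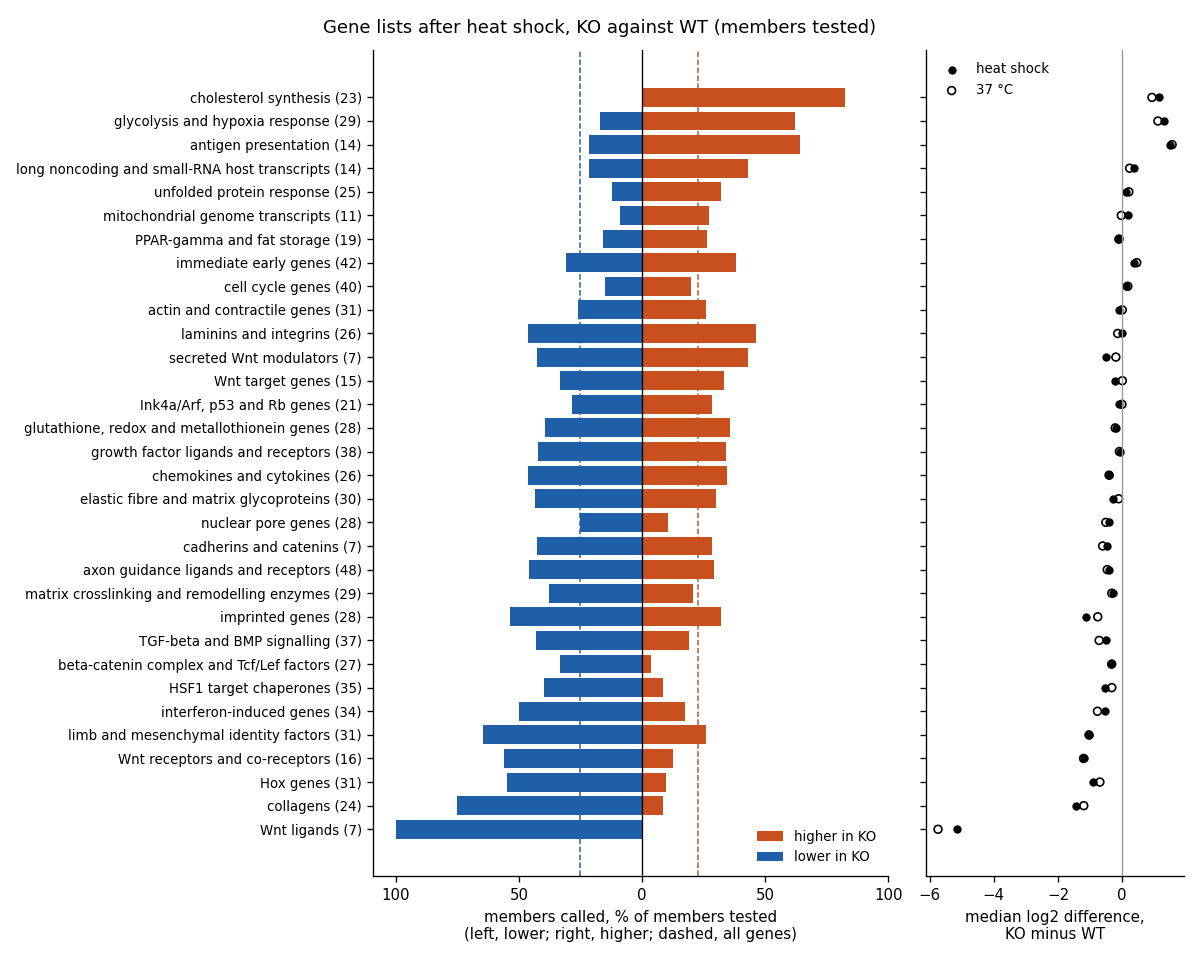
Share of tested members called higher (right, orange) or lower (left, blue) in heat-shocked KO MEFs for each gene list with at least 7 tested members, whose number is in brackets, and the list's median log2 difference after heat shock (filled) and at 37 °C (open). Dashed lines mark the shares over all genes, 22.9% higher and 25.2% lower: the 7 tested Wnt ligands were lower, 6 of them past the filter in WT columns only, and 19 of 23 cholesterol synthesis genes higher with none lower.

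Positional identity genes were lower more often than higher. Of 31 tested Hox genes, 3 were higher and 17 lower, with a median of -0.93, and 9 of them passed the filter through the WT columns alone. In the Hoxa cluster on chromosome 6, Hoxa9 (239, 283 and 238 in WT, 0, 2.07 and 2.09 in KO), Hoxa10 (284 and 4.03 on average) and Hoxa11 (114, 138 and 127 in WT, no KO read) were lower, while no gene from Hoxa2 to Hoxa7 was. In the Hoxc cluster on chromosome 15, 7 of 9 tested genes were lower: Hoxc10 to Hoxc13 at its posterior end by -3.16 to -6.97, and Hoxc9, Hoxc6 and Hoxc4 by -0.93, -1.06 and -1.81. Hoxc5 was not called, and Hoxc8 was higher by 1.67. Genes in these clusters overlap one another and antisense transcripts, and whether reads were counted by strand is not given in the sources used here, so single members are uncertain. Without the third WT library the count of higher Hox genes was 1. Limb and mesenchymal factors followed with 8 higher and 20 lower among 31 tested, 90.3% called, of which 11 passed through the WT columns alone: Tbx5, the forelimb factor (171, 158 and 153 in WT), Hand2 (202, 195 and 233) and Msx2 (121, 112 and 128) had no KO read, while Prrx1, a factor of limb mesenchyme in general, was not called (0.21 ± 0.07). The clusters were chosen for description after their values were seen.

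Imprinted genes, expressed from 1 parental copy, showed all-or-none differences in both directions (9 higher and 15 lower among 28 tested, 85.7% called, with 10 past the filter in WT columns only and 7 in KO columns only). Around Peg10 on chromosome 6, 10 of the 11 tested genes that start from Col1a2 to Slc25a13 were lower, among them the imprinted genes Sgce and Asb4 (Sgce with 452, 411 and 435 in WT and Asb4 with 1832, 1811 and 1941, neither with a KO read), Casd1 (-1.93), Pdk4 and Slc25a13 (-1.89). The exception was Col1a2 at the edge. Over all tested genes 25.2% were lower. Peg10, Sgce, Asb4, Pdk4 and Dync1i1 had no KO read, so they passed the filter through their WT columns alone and had to differ. Ppp1r9a and Pon3 had KO means of 6.35 and 6.75, under the minimum of 10. Casd1, Pon2 and Slc25a13 were lower with means above 10 in both genotypes. Around Peg3 on chromosome 7, 2 of 7 tested genes were higher, Peg3 and its divergent neighbour Usp29 (0.459 in WT and 19.4 in KO on average). Of the flanking zinc finger genes Zfp583 (41.2 in WT on average, no KO read) and Zfp418 (-0.92) were lower, and Zfp28 (-0.07), Zfp954 (-0.04) and Zfp78 (-0.28) were not called. Igf2 was higher (4.94, 3.26 and 2.76 against 328, 269 and 281) together with H19, its neighbour expressed from the other parental copy (15.8, 34.2 and 40.8 in KO, no WT read). These neighbourhoods were chosen after their values were seen. Of 99 tested genes that start within 5 Mb of Tgm2 on chromosome 2, 35 were called (35.4%, against 48.1% overall).

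Whole chromosomes leaned to one side. On chromosome 5, 407 of 842 tested genes were lower (48.3%, against 25.2% overall) and 113 higher, and the median difference was -0.55. Chromosome 15 had a median of -0.50 (238 of 536 lower) and chromosome 10 of -0.37. Chromosome 8 leaned the other way, with 328 of 733 genes higher (44.7%, against 22.9% overall) and a median of 0.48, followed by chromosome 17 at 0.29 and chromosome 3 at 0.22. The 3 KO libraries taken singly gave -0.55 each for chromosome 5 and 0.46 to 0.52 for chromosome 8, so the lean was far wider than the spread between libraries. It was there at 37 °C (-0.51 and 0.55), in genes with a mean of at least 100 in both genotypes (-0.55 and 0.47) and with quantile normalization (-0.46 and 0.58). Positions came from GENCODE M21 by symbol for 13104 of the tested genes (95.6%), and copy number was not measured, so its part was not tested.

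**Figure D5:**
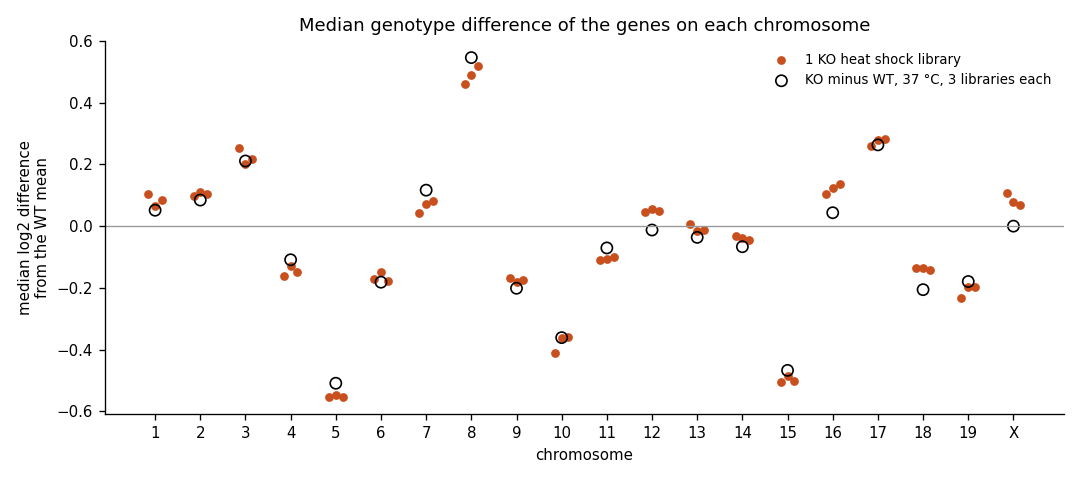
Median log2 difference from the mean of the 3 heat-shocked WT libraries over the tested genes of each chromosome, in each heat-shocked KO library (orange points), with the median difference KO minus WT at 37 °C (open circles). Chromosomes 5 and 15 lie near -0.55 and -0.50 and chromosome 8 near 0.48 in all 3 libraries.

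Sterol synthesis genes were mostly higher. Of 23 tested genes 19 were higher and 0 lower (limma; without a fold threshold 22 were higher and 1 lower), with a median of 1.14 after heat shock and 0.93 at 37 °C. Msmo1, which removes methyl groups from sterols, rose most of those named, 655, 746 and 739.8 in WT against 4476, 4212 and 4306 in KO libraries (2.60 ± 0.08), with Hmgcs1, Mvd, Fdps and Lss higher by 1.48 to 1.86.

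Genes of glycolysis and the hypoxia response were mostly higher too, with 18 higher and 5 lower among 29 tested, 79.3% called, 3 past the filter in KO columns only and a median of 1.29. The glucose carrier Slc2a1 went from 1413, 1482 and 1572 to 10846, 12796 and 12562 and lactate dehydrogenase Ldha from 16328, 16761 and 18416 to 50462, 56279.5 and 56754. Targets of hypoxia-inducible factor were higher in the same libraries: Bnip3 by 3.36 ± 0.08, Ankrd37 by 3.80 ± 0.17, Vegfa by 1.29 ± 0.07, and Car9, carbonic anhydrase 9, from no WT read to 142, 194 and 151, at least 144-fold. Fat storage genes were mixed, 5 higher and 3 lower among 19 tested, 42.1% called against 48.1% of all genes, with a median of -0.14. The filter was passed by 2 of them in WT columns only and by 1 in KO columns only. Pparg was barely read in WT (28.3, 28 and 28.3 in KO, 37.4-fold (95% counting interval 10 to 315) higher), and lipoprotein lipase Lpl (544, 456 and 456 in WT) had no KO read. Both passed through 1 genotype alone and had to differ. Cebpd was higher by 3.44 and Plin4 by 4.04.

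Redox genes were divided (10 higher and 11 lower among 28 tested, 75% called, 3 past the filter in WT columns only). The glutathione transferases Gstt1 and Gstm2 were lower by -3.77 and -2.27 and the peroxidase Gpx7 (530.4, 605 and 584 in WT) had no KO read, while metallothionein Mt1 (1769, 1739 and 1838 against 8456, 10562 and 10001) and Nqo1 (1.25) were higher. Hmox1, heme oxygenase, was not called (-0.30 ± 0.07). Of unfolded protein response genes, there were 8 higher and 3 lower among 25 tested, 44% called against 48.1% of all genes. Trib3 (391, 393 and 417 against 3611, 3664 and 3717), Ddit3 (1.96), Chac1 (1.86) and Herpud1 (1.84) were higher, whereas the endoplasmic reticulum chaperone Hspa5 (0.04 ± 0.07) and Xbp1 (-0.11 ± 0.05) were not called. The 3 lower ones were Pdia3 (-0.83), Creld2 (-0.77) and Dnajc3 (-0.59), chaperones or folding factors of the endoplasmic reticulum that were named after their values were seen. Trib3, Ddit3 and Chac1 are known targets of the ATF4 arm of the response.

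Immune genes of fibroblasts showed class I antigen presentation higher. The list gave 9 higher and 3 lower among 14 tested, 85.7% called with a median of 1.48: H2-K1 was at 803, 818 and 733 in WT and 9801, 11284 and 10796 in KO, H2-D1 at 1037, 1047 and 1021 and 16569.8, 17823 and 17716, H2-Q4 higher by 5.58, B2m by 0.95 and their activator Nlrc5 by 3.76. H2 genes are near-identical relatives of one another, so the share of each is uncertain. Interferon-induced genes went mostly the other way, 6 higher and 17 lower among 34 tested, 67.6% called, 5 past the filter in WT columns only and 4 in KO columns only, with a median of -0.54: the RNA sensor Ifih1 fell from 390.2, 375 and 387 to 3.39, 6.22 and 7.33, and Isg15 by -1.05. Chemokines were split (9 higher and 12 lower among 26 tested, 80.8% called, 4 past the filter in WT columns only and 3 in KO columns only). Cxcl12, the main stromal chemokine, fell from 25650.5, 24197 and 25139.6 to 927, 1037 and 926, Cxcl5 from 1108, 1044 and 1095 to 5.65, 8.3 and 9.42 and Ccl2 by -1.58, while the alarmin Il33 was higher, 6.91, 6.52 and 2.76 against 1077, 1114 and 1123.

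Growth factor signalling genes differed member by member. The TGF-β and BMP list had 7 higher and 16 lower among 37 tested, 62.2% called, 5 past the filter in WT columns only and 1 in KO columns only and a median of -0.50. Tgfb1 fell from 1722, 1815 and 1911 to 557, 548 and 479, the ligand gene Bmp7 (418, 484 and 492 in WT) had no KO read, and the target Id1 was lower by -1.07. Among growth factors and receptors (13 higher and 16 lower among 38 tested, 76.3% called, 9 past the filter in WT columns only and 4 in KO columns only), Pdgfra and Egfr were lower by -1.37 and -1.34, and Tgfa, Kit and Igfbp3 had no KO read from WT means of 423, 191 and 173. Guidance genes were split (14 higher and 22 lower among 48 tested, 75% called, 8 past the filter in WT columns only): beside the rise of Slit2 and Slit3, their receptor Robo1 had 307, 257 and 255 in WT and no read in KO libraries.

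Proliferation genes gave 8 higher and 6 lower among 40 tested, 35% called against 48.1% of all genes. Mki67, present in all dividing cells, was at 10682, 9556 and 10202 in WT and 10451, 11198 and 10333 in KO (0.07 ± 0.06), and Ccnb1 was under the fold (0.42 ± 0.06). Ccnd2, Cdk6 and Foxm1 were higher by 1.45, 1.47 and 1.27. Cdkn2a (-0.15 ± 0.08) and Trp53 (-0.10 ± 0.07), the genes most often lost when MEFs become immortal, were not called, while Cdkn1a, the p53 target p21, went from 121, 152 and 105 to 736, 718 and 854 and Rb1 from 81, 70.7 and 64.8 to 353, 385 and 325. Nuclear pore genes gave 3 higher and 7 lower among 28 tested, 35.7% called against 48.1% of all genes, and a median of -0.40. Pom121 was lower by -1.26 and Nup214 by -0.83, and Nup98 was not called (0.15 ± 0.05).

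Both genotypes carried fibroblast markers. Of 13 tested fibroblast markers 6 were higher, among them Thy1 (650.0, 679 and 672 against 8385, 9004 and 8888) and S100a4 (2.87), and 4 were lower, including Pdgfra. Their summed signal was 371967 to 405240.0 in WT and 330392 to 373970.0 in KO libraries. Some markers of epithelium (Epcam, Cdh1), endothelium (Pecam1, Cdh5), leukocytes (Ptprc), T cells (Cd3e), neural crest (Sox10) and muscle (Myod1) fell below the filter, while other members of their lists did not. Of 11 epithelial markers 2 were tested (0 higher and 1 lower), of 10 endothelial 4 (2 and 1), of 13 myeloid 4 (2 and 2) and of 12 T cell 3 (1 and 2). Of 13 neural markers 5 were tested (0 higher and 2 lower), of 10 skeletal muscle 1 (1 and 0) and of 11 chondrocyte and osteoblast 7 (0 and 4). The filter was passed in WT columns only by 2 of the T cell and 2 of the neural markers, and in KO columns only by 1 myeloid marker. Single markers differed widely, such as Csf1r, the macrophage colony-stimulating factor receptor (4996, 5047 and 5416 in WT, 21.5, 13.5 and 11.5 in KO). Trdc of the T cell list and Uchl1 of the neural list had WT means of 2102 and 2901. Plac8 of the myeloid list and Des of the muscle list had KO means of 2238 and 228. The part of other cell types in the results was not tested. In bulk RNA fewer cells of a type and less RNA per cell cannot be told apart.

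Xist, the RNA of the inactive X chromosome, was higher in KO (2671, 2068 and 2109 against 12080.1, 9959 and 11471, 2.30 ± 0.13), and no Y chromosome gene of 8 had a read in the 6 libraries. The median difference of the 419 tested X-linked genes was 0.08. Among mitochondrial transcripts the ribosomal RNA mt-Rnr2 was higher in heat-shocked KO MEFs (5589.8, 4878 and 7753 against 17843, 14306 and 14891, 1.39 ± 0.18) and level at 37 °C (means of 2742 and 2774). The difference between these differences was 1.37, called by edgeR and DESeq2 (adjusted p = 0.0174 and 0.0075) and not by limma (0.0814). The other mitochondrial ribosomal RNA, mt-Rnr1, was higher in KO libraries at both temperatures. It ran from 765 to 1100 in WT and from 1592 to 2560 in KO libraries at 37 °C. After heat shock it ran from 1154 to 1356 in WT and from 3472 to 4831 in KO libraries. Poly-A selection captures such RNAs only in part. Of the mitochondrial protein genes mt-Nd1 was not called (0.18 ± 0.17) and mt-Cytb was lower (-0.73 ± 0.18).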

How the data were processed

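For 12 libraries, poly-A RNA was made into stranded libraries and read from both ends. Trimming was by cutadapt 1.10, alignment by STAR 2.5.2 and counting by HTSeq-count. The deposited signal values are counts that the authors scaled by a DESeq2 size factor for each library. The paper names the mouse build GRCm38 and the submitters' processing notes name mm9. The table holds no positions, so positions were taken from GENCODE M21 (GRCm38) by symbol. Divided by the worth of a single read, 100% of the values came out whole to within 0.01, and these recovered reads entered the count tests.

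The test took genes reaching 10 in 3 or more of the 6 heat shock columns. Values on the log2(signal + 1) scale were modelled by limma 3.58.1 (R 4.3.3, trended eBayes) with a mean for each of the 4 groups of 3 libraries and no block. P-values were adjusted by Benjamini-Hochberg over the 13701 genes. Zero-read groups were given a floor of 3 reads over the 3 libraries, and ratios on 1 to 3 reads an exact 95% interval, which cover counting error only. Same-numbered libraries did not all deviate together, with 2 of 18 correlations above 0.1, so the numbers were not taken as pairs. Both were between the genotypes at 37 °C (0.238 for number 1 and 0.180 for number 3, against 0.0247 for number 2), where the mitochondrial share of reads was also alike by number (0.674% to 0.687%, 0.816% to 0.892% and 1.13% to 1.19%). Alternatives were a pseudocount of 5, no filter, a minimum of 50, quantile normalization, edgeR 4.0.16, DESeq2 1.42.0, the libraries of the comparison alone, a replicate block, each library left out and other fold thresholds. The tests were checked on simulated counts.

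The members, gene lists and tests were chosen with earlier results of these data known. Genes were named if they were Tgm2, Hsf1, Ctnnb1, Wnt10b, Wnt5a, Lef1 or Igfbp4, among the 8 largest called changes in each direction (mean of at least 500, libraries apart), among the 6 most abundant called genes in each direction, among up to 4 largest called changes of a list (mean of at least 100), or canonical members of a list. The rule also took called interaction genes and genes called in opposite directions, and found none above its minimum. Other genes named were chosen after their values were seen, and some genes that met the rule are not reported here. List symbols missing from the table were matched through RefSeq synonyms (9 symbols). With 3 libraries against 3, an exact permutation test of 1 gene cannot go below p = 0.1, so none was used.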

Additional observations from a re-analysis of the deposited data

How the results depend on the processing

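Counts of genes higher and lower after heat shock stayed within 1.5 times of 3133 and 3455 over the changes of method and the libraries left out: 2378 to 3991 higher and 2797 to 4362 lower over the 8 changes of method, and 3072 to 3137 higher and 3404 to 3458 lower with 1 of the 12 libraries left out. The fold threshold moved them further, to 4977 and 5502 with none and to 1948 and 2246 at 2-fold. With the replicate number as a block (replicate block), 3132 genes were higher and 3457 lower, and the block changed no call of a named gene. Of 201 named genes called, 194 kept their call in each of the 20 alternatives, 7 lost it in some, and none reversed. Of the 27 named genes not called, 5 were called in some alternative. The difference between the genotype differences was the unstable result. Its counts of positive and negative calls, 0 and 0 by limma, were 7 and 4 with a pseudocount of 5, 2 and 4 with quantile normalization, 0 and 3 with a minimum of 50, 6 and 4 by edgeR and 27 and 7 by DESeq2. With a library left out they ran from 0 to 123 positive and from 0 to 32 negative, highest without the first WT library at 37 °C. The cause was not tested. List counts stayed within 1.5 times in 1866 of 1936 comparisons. Depth limits what a missing read shows: 3 reads over 3 heat-shocked KO libraries are worth a mean signal of 1.07.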

Other observations

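The share of genes called varied with the annotated biotype, a difference that was not tested. Of 171 tested lincRNA genes 70.8% were called, with 88 higher and 33 lower in heat-shocked KO MEFs, and of 198 antisense transcripts 66.7%, against 47.3% of 11785 protein-coding genes, 23.8% of 42 snoRNA genes and 15.4% of 13 miRNA genes. Level moved with this, since 69.2% of genes were called among the 2741 genes of lowest mean signal and 34.4% among the 2740 of highest, and its part was not tested. The 4 tested keratin genes from Krt13 to Krt16 on chromosome 11 were lower, while Epcam and Cdh1 fell below the filter in both genotypes: Krt16 had a mean of 241 in WT and no KO read, and Krt13 went from 208 to 5.29. Over all tested genes 25.2% were lower. Krt14, Krt15 and Krt16 had no KO read, so they passed the filter through their WT columns alone and had to differ.

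Several small structural RNAs were far apart between the temperatures. Rn7sk signal was 8.30 to 16.1 in WT and 10.2 to 14.8 in KO libraries at 37 °C, and 138 to 254 and 200 to 255 after heat shock. Rmrp was at 3.11 to 6.99 in WT and 3.18 to 5.83 in KO libraries at 37 °C, and at 121 to 174 in WT and 120.3 to 139 in KO libraries after heat shock. Rpph1 also parted the genotypes at 37 °C, with 7.22 to 13.5 in WT and 30.8 to 46.6 in KO libraries, against 149 to 226 and 143 to 163 after heat shock, and its difference between the genotype differences was called by edgeR (-2.17, adjusted p = 0.0174) and not by limma (-2.06, 0.0698). Such RNAs are poorly captured by poly-A selection, and whether libraries of both temperatures were prepared together is not given in the sources used here.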
